A study of Mus musculus with 2 samples.

Results

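Type I interferon stimulated genes are the genes that cells switch on when interferon alpha or beta binds its receptor. A set of 44 such genes was chosen by gene symbol, and all 44 were found among the 55536 annotated genes of the deposited tables. The data are RNA-seq of polyadenylated RNA from regulatory T cells (Treg cells, CD4 T cells that restrain other immune cells). They came from a male mouse aged 9 weeks. There were 2 libraries, technical replicates 1 and 2 of biological replicate 1, called library 1 and library 2 here. Strain, sorting markers, treatment, cell number, read length and strandedness are not stated in the labels or file headers used here. With 1 biosample there is no comparison between conditions, and the SD given below (n = 2 libraries) measures technical spread and says nothing of other mice. In bulk RNA, fewer cells of a type and less RNA per cell cannot be told apart.

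In the type I pathway, the receptor chains Ifnar1 and Ifnar2 activate the kinases Jak1 and Tyk2, which phosphorylate Stat2. The phosphorylated protein acts in a complex with Irf9 that binds the interferon stimulated response element, a DNA site built of GAAA boxes, in the promoters of target genes. The products sense foreign nucleic acid, degrade or edit RNA, block virus entry and modify proteins, and some damp the response itself. Many of these genes also keep a basal level in uninfected lymphocytes, and part of them respond to interferon gamma as well.

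The response element was looked for in the annotated promoters, because it is what these genes are known to share. RefSeq windows on GRCm38.p6, running from 250 bases before to 50 bases after each annotated start site, were found for 33 of the 44 genes, and not for Dhx58, Ifi204, Ifi27, Ifi27l2a, Mx1, Oas2, Parp14, Parp9, Rtp4, Usp18 and Zbp1. A pair of GAAA boxes separated by any 2 bases, searched on both strands, was in 15 of these 33 genes (45.5%). Of all 27025 genes with a window 1079 (3.99%) held it, and 328 of 8416 protein-coding genes detected in these cells (3.90%). The stricter form, GAAAC, any 1 base and GAAA, is a subset of it and was found in 8 of the 33 (24.2%), against 0.792% of all genes. A second element, TTC, any 3 bases and GAA, known from interferon gamma responsive promoters, was in 8 of 33 (24.2%), against 9.55% of all genes, and it overlapped a GAAA pair in Bst2 and Ifitm3. A match describes letters in a window and does not show that a factor bound there.

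The stretches below come from the genes whose strict form lay upstream of the start site, each with 15 flanking bases. They are from RefSeq (GRCm38.p6), read 5′ to 3′ along the gene's strand, and capitals mark the matches, whose boxes read as TTTC where the match is on the other strand. For Ifit3 the match nearer the start site is shown. The Isg15 stretch is chr4:156200860-156200911 (minus strand), Ifit1 chr19:34640770-34640828 (plus), Ifit3 chr19:34583392-34583431 (plus), Bst2 chr8:71537572-71537617 (minus) and Oas1a chr5:120907515-120907560 (minus).
Isg15: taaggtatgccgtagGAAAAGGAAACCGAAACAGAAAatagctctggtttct
Ifit1: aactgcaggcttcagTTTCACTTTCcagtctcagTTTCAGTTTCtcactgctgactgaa
Ifit3: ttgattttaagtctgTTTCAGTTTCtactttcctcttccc
Bst2: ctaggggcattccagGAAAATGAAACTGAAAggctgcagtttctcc
Oas1a: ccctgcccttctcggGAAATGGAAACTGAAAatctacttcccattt

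Isg15 held 3 overlapping matches in a run of 4 GAAA boxes, the first beginning 78 bases before the start site. Ifit1 held a match 104 bases and another 85 bases before its start site, Ifit3 156 and 122 bases, Bst2 130 and 124 bases, and Oas1a 20 and 14 bases. In Ifitm3, Trim21 and Ifih1 the strict form began 19, 13 and 32 bases after the start site. The looser pair alone was found upstream in 5 further genes. Stretches of 4 of them show boxes with other letters between and after them: Rsad2 chr12:26456548-26456587 (minus), Oas3 chr5:120777710-120777749 (minus), Ifitm2 chr7:140955983-140956022 (minus) and Ifi203 chr1:173942503-173942542 (minus).
Rsad2: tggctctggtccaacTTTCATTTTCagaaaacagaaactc
Oas3: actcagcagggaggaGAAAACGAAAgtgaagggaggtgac
Ifitm2: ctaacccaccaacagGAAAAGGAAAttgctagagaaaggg
Ifi203: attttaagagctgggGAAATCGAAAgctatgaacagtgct

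Ddx58, Eif2ak2 and Trim30a complete the 15. The 24 matches comprised 16 on the gene's strand and 8 on the other, 8 genes held more than 1, and in 10 genes a match began within 150 bases upstream of the start site. For contrast, the 250 bases before the start sites of Isg15, chr4:156200819-156201068 (minus strand), and of Sp100, chr1:85649738-85649987 (plus strand), are given in full. Sp100 was the most abundant of the genes with a window, and its windows held no pair.
Isg15 upstream: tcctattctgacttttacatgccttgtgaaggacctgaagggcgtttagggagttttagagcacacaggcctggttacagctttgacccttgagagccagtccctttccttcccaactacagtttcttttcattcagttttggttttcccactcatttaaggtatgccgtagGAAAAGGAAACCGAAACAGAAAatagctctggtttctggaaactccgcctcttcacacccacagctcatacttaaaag
Sp100 upstream: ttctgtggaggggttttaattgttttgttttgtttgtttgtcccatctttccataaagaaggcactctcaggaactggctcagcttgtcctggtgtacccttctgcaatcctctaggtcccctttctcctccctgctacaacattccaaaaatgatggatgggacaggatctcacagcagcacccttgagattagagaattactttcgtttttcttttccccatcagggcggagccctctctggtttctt

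**Figure D1:**
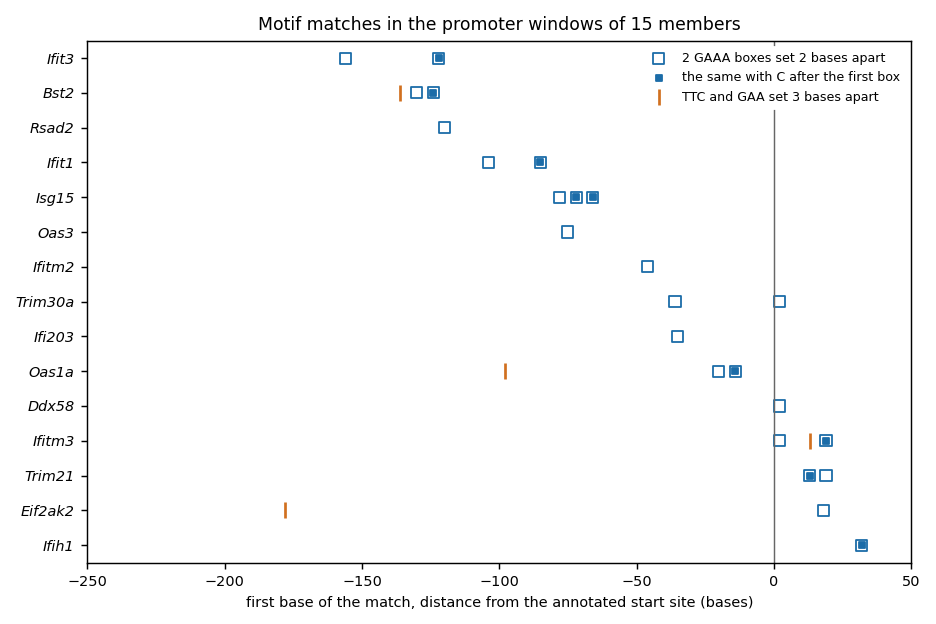
Positions of motif matches in the 15 genes whose promoter window holds the GAAA pair. The horizontal axis is the distance of the first base of a match from the annotated start site in bases, open squares are GAAA pairs, filled squares the strict form and ticks the TTC and GAA element, and the GAAA pairs run from 156 bases before to 32 bases after the start site.

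The sample's identity and depth bear on every value below. Annotated genes received 34697128 estimated counts in library 1 and 32049199 in library 2. All 10 Treg and T cell markers were detected, and Foxp3, the factor that defines the lineage, had 108 TPM in library 1 and 111 TPM in library 2. Among markers of cells that are strong producers of or responders to interferon, 4 of 7 for plasmacytoid dendritic cells were detected, and their 7 levels summed to 100.0 TPM in library 1 and 91.6 TPM in library 2. Most of that sum was Pacsin1, at 69.2 and 64.2 TPM, while Siglech was at 0.57 and 0.09 TPM. Of the conventional dendritic cell list 1 of 5 was detected, and the list summed to 2.59 and 2.26 TPM. The macrophage and monocyte list had 3 of 8 detected, B cells 5 of 7, CD8 T and NK cells 4 of 7, neutrophils 0 of 6 and red cells 5 of 6. Red cell markers were the highest of these lists, with a sum of 383 TPM in library 1 and 351 TPM in library 2, against 49.9 and 45.3 TPM for B cells and 13.7 and 15.6 TPM for CD8 T and NK cells. The part that such cells have in the levels below was not tested.

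Nearly the whole set was expressed. TPM is a level corrected for gene length and scaled to a fixed total per library. With at least 1 TPM in both libraries, 42 of the 44 genes were detected, while 48.0% of 22028 protein-coding genes were. The exceptions were Ifi204, at 0.42 TPM in library 1 and at 0.43 TPM in library 2, and Ifitm1, at 0.06 and 0.41 TPM. In both libraries 9 genes reached 100 TPM, as did 7.97% of protein-coding genes. By mean level 8 genes lay under 10 TPM, 27 between 10 and 100 TPM and 9 above. The median of the 44 was 44.6 TPM in library 1 and 45.9 TPM in library 2. Over the 10583 detected protein-coding genes, a set from which low genes are left out, it was 31.9 and 30.1 TPM. Together the 44 genes took 0.485% of all TPM in library 1 and 0.502% in library 2, and Ifi27l2a and Sp100 alone made up 37.5% and 38.9% of that.

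**Figure D2:**
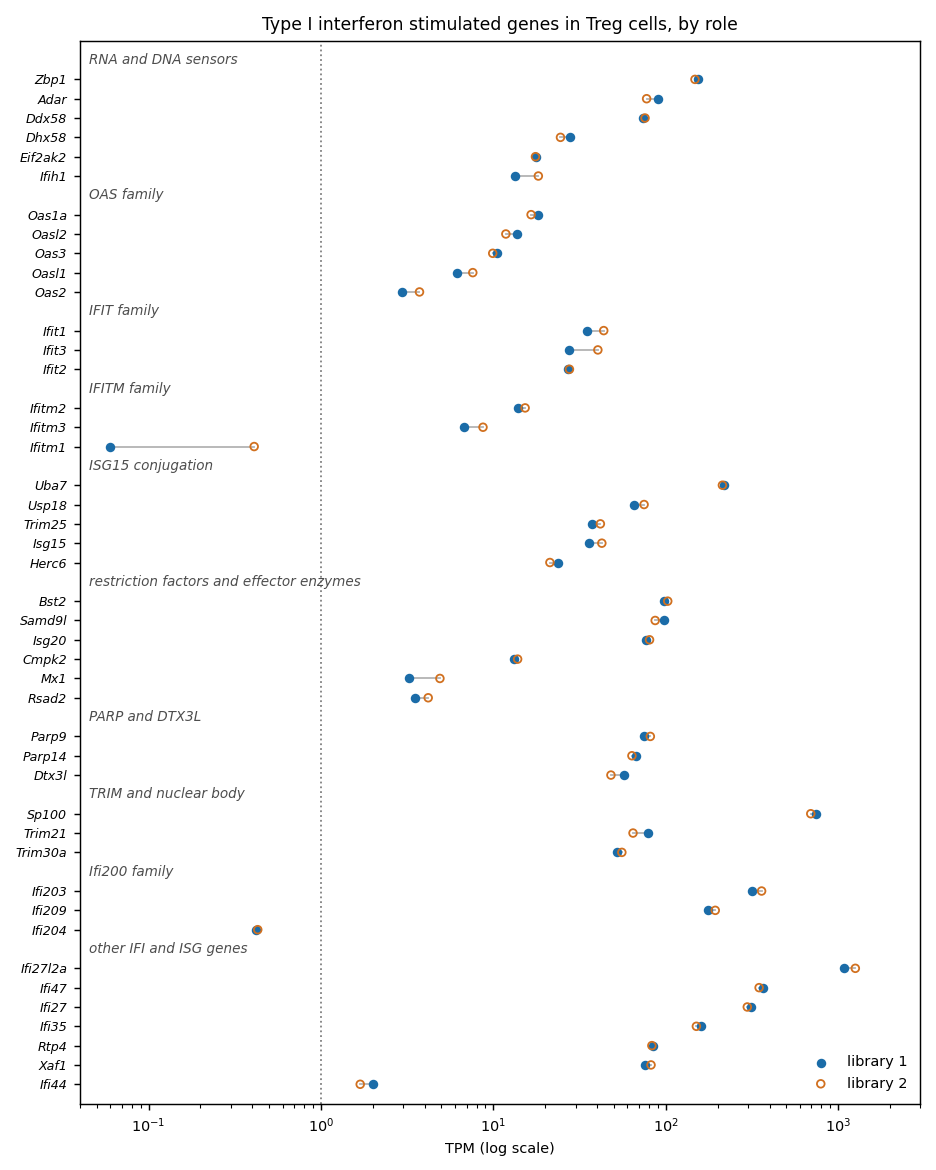
Level of each of the 44 genes in TPM (log scale, horizontal axis), grouped by role, with library 1 as filled and library 2 as open circles and the detection minimum of 1 TPM dotted. The levels run from below 1 TPM for Ifitm1 and Ifi204 to over 1000 TPM for Ifi27l2a, and in most genes the libraries lie close together.

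Among the sensors of foreign nucleic acid all 6 were detected. Zbp1, which binds left-handed nucleic acid and can trigger cell death, was highest, at 155 TPM in library 1 and at 148 TPM in library 2. Adar, the enzyme that turns adenosine into inosine in double-stranded RNA, stood at 89.6 and 77.5 TPM. Ddx58 encodes RIG-I, a helicase that detects viral RNA ends, and had 73.75 TPM in library 1 and 75.8 TPM in library 2. The other RNA helicases were lower in both libraries. Dhx58, whose product LGP2 tunes RNA sensing, had 27.9 and 24.5 TPM, and Ifih1, encoding MDA5, a sensor of long double-stranded RNA, had 13.4 and 18.2 TPM. Eif2ak2, encoding the kinase PKR that halts translation, had 17.57 TPM in library 1 and 17.56 TPM in library 2. The levels of Ddx58 and Ifih1 in these cells did not overlap, and those of Ifih1 and Eif2ak2 did.

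The OAS family was low throughout. These enzymes make oligoadenylates that activate the ribonuclease RNase L. Oas1a had 18.1 TPM in library 1 and 16.6 TPM in library 2, Oas3 had 10.5 and 9.92 TPM, and Oas2 had 2.97 and 3.73 TPM. Of the OAS-like genes, Oasl2 stood at 13.7 and 11.8 TPM, and Oasl1, a translational inhibitor of Irf7 in mice, at 6.19 and 7.60 TPM. All 5 family members were detected, and all 5 lay below the median of the 44 genes. Of the 50-base stretches in the transcripts of Oas1a 57.6% also occur in Oas1g, a near copy listed at 0.33 and 0.26 TPM, so shared reads are divided by a model. The deposited posterior SD of the Oas1a count was 3.88 of 704 estimated counts in library 1 and 3.07 of 624 in library 2. It describes spread within that model only.

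IFIT proteins bind viral RNA that lacks the host's cap marks. Ifit1 had 34.9 TPM in library 1 and 43.7 TPM in library 2, Ifit3 had 27.55 and 40.4 TPM, and Ifit2 had 27.2 and 27.6 TPM. All 3 were detected and lie in a row on chromosome 19, from 34550694 to 34650009 (GRCm38, plus strand). Within each library the order was Ifit1, Ifit3 and Ifit2. Set across the libraries, the values of Ifit1 and Ifit3 overlapped, as did those of Ifit3 and Ifit2. Ifit3 shares 51.2% of its 50-base stretches with its near copy Ifit3b, which stood at 4.59 TPM in library 1 and at 7.05 TPM in library 2. The sum over the IFIT genes was 89.7 TPM in library 1 and 112 TPM in library 2.

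The IFITM family, membrane proteins that hinder virus entry, held the lowest gene of all. Ifitm2 had 13.8 TPM in library 1 and 15.3 TPM in library 2, and Ifitm3 had 6.72 and 8.71 TPM, both encoding proteins of endosomes and lysosomes. Ifitm1, which acts mainly at the cell surface, rested on 1.03 and 5.21 estimated counts, so it is at the limit that depth allows. Ifitm2 shares 48.5% of its 50-base stretches with other genes, mostly with Gm45717, an overlapping gene model at 0 TPM in both libraries.

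Genes of ISG15 conjugation spanned a wide range. Isg15, a ubiquitin-like protein that is attached to other proteins, had 35.7 TPM in library 1 and 42.6 TPM in library 2. Uba7, the gene of the activating enzyme that loads it, was far higher, at 217 and 213 TPM. That level is a sum over its transcripts, and its only coding transcript was assigned 0 TPM in both libraries, as described below. Herc6, its main ligase in mice, had 23.6 and 21.3 TPM, and Trim25, a ubiquitin ligase that acts on RIG-I, had 37.35 and 41.8 TPM. Usp18, which strips ISG15 from proteins and also damps signalling at the receptor, had 65.2 TPM in library 1 and 74.9 TPM in library 2. All 5 were detected, and the gene levels of Uba7 and Usp18, summed over all transcripts, lay above that of Isg15 in both libraries.

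Restriction factors and effector enzymes divided into a high and a low set. Bst2, or tetherin, which holds budding virions at the membrane, had 97.1 TPM in library 1 and 103 TPM in library 2. Samd9l, a restriction factor that limits translation and growth, had 97.8 and 86.85 TPM, and Isg20, an exonuclease, had 76.5 and 80.55 TPM. The other 3 were each below these in both libraries. Cmpk2, a mitochondrial nucleotide kinase, had 13.2 and 13.8 TPM. Rsad2, or viperin, which makes a chain-terminating nucleotide, had 3.50 and 4.19 TPM, and Mx1, a GTPase that blocks influenza viruses, had 3.23 and 4.90 TPM. Rsad2 and Cmpk2 are neighbours on chromosome 12, with 12751 bases between them, and Cmpk2 was the higher in both libraries.

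Enzymes of ADP-ribosylation and their partner were close in level. Parp9 had 74.5 TPM in library 1 and 81.4 TPM in library 2, its partner in a complex, the ubiquitin ligase Dtx3l, had 57.05 and 48.1 TPM, and the mono-ADP-ribosyltransferase Parp14 had 67.4 and 63.7 TPM. All 3 lie on chromosome 16. Parp9 and Dtx3l are read from opposite strands and overlap by 682 bases, with 458 shared exonic bases, and the strand setting of the libraries is not stated. Reads in that overlap cannot be assigned with certainty. For each gene the deposited posterior SD was 3.38 counts in library 1 and 3.99 in library 2. Estimated counts were 4450 and 4619 for Parp9 and 6109 and 5034 for Dtx3l. The log2 ratio of library 1 over library 2 was -0.17 for Parp9 and 0.16 for Dtx3l, and the part of the overlap in these ratios was not tested.

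Sp100, which organises nuclear bodies that silence incoming viral DNA, was the second highest of all 44 genes, at 743 TPM in library 1 and at 694 TPM in library 2. Trim21, a cytosolic antibody receptor and ubiquitin ligase, had 78.75 and 64.6 TPM. Trim30a, which restrains inflammatory signalling in mice, had 51.9 and 55.6 TPM. Sp100 exceeded both at every library value.

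The Ifi200 genes encode proteins of the PYHIN type, several of which bind DNA. Ifi203 had 318 TPM in library 1 and 359.8 TPM in library 2, and Ifi209 had 176 and 194 TPM, while Ifi204 was under the detection minimum. Ifi209 and Ifi204 lie 99364 bases apart on chromosome 1. Ifi209 shares 33.4% of its 50-base stretches with Ifi214, which stood at 32.8 TPM in both libraries, and Ifi203 shares 8.85% with its pseudogene.

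The remaining 7 genes included both the highest gene of the set and the lowest detected one. Ifi27l2a, of a family of small membrane proteins of mitochondria and the nuclear envelope, led at 1075.5 TPM in library 1 and at 1258 TPM in library 2, or 1167 ± 129 TPM. It lies on chromosome 12 from 103442167 to 103443680 (minus strand), and its relative Ifi27 lies 1927 bases away, at 313 and 297 TPM. Ifi47, an immunity-related GTPase, had 364 TPM in library 1 and 348 TPM in library 2. Ifi35, which pairs with another interferon-induced protein in signalling complexes, had 160.2 and 151 TPM. Rtp4, a chaperone of membrane receptors, had 84.05 and 83.1 TPM, and Xaf1, which promotes cell death, had 75.3 and 82.2 TPM. Ifi44 was the lowest of the 42 detected genes, at 2.01 TPM in library 1 and at 1.69 TPM in library 2.

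By TPM, neighbours in the order of levels were separated more often at the top than in the middle. The libraries of neighbouring genes did not overlap in 19 of the 43 neighbouring pairs of the order and overlapped in 24. Overlap was judged across the libraries, so an overlapping pair may still keep the same order within each library. By TPM Ifi27l2a stood above Sp100, and Sp100 above Ifi47, at every library value. The top place depends on the measure, since by the deposited M4 counts per kilobase, described below, Ifi27 came first and Ifi27l2a in place 7. Between Rtp4, in place 12 by TPM, and Parp14, in place 20, none of the neighbours was separated. Spearman's rho between the libraries was 0.992 across the 44 genes, which share one RNA sample and are not replicates.

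Several of the genes are neighbours in the genome. Within 100 kb of another member lay 19 of the 44 genes, in 11 pairs with no other member between them, and the 44 were spread over 14 chromosomes. Levels of neighbours could be unlike. Oas3 and Oas2, 3244 bases apart on chromosome 5, had mean levels of 10.2 and 3.35 TPM. The Ifitm genes lie on chromosome 7 in the order Ifitm2, Ifitm1 and Ifitm3, with the gene that was not detected in the middle. By promoter, the 15 genes with a GAAA pair had a median level of 33.97 TPM, the 18 with a window but no pair 65.55 TPM and the 11 with no window in the RefSeq table had a median of 70.02 TPM. Levels of the first 2 groups overlapped widely, from 3.85 to 339 TPM with a pair and from 0.235 to 719 TPM without.

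The machinery upstream of these genes was described by lists of 118 distinct pathway genes, of which 79 were detected, beside 48.0% of protein-coding genes. The lists include interferon gamma induced genes and near relatives of the set. Of 18 type I interferon genes 0 were detected, and 16 of them had no read in either library, which allows up to 3 reads per library. Ifnk had 0.06 TPM in library 1 and 0 in library 2, and Ifnz had 0.57 and 0.74 TPM. Ifng, the type II ligand, was low but detected, at 3.77 and 3.31 TPM. These levels describe RNA in the sampled cells and not the interferon they had met.

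Both chains of the type I receptor were expressed. Ifnar1 had 141 TPM in library 1 and 122 TPM in library 2, and Ifnar2 had 108 and 107 TPM. Ifngr1, the ligand-binding chain of the interferon gamma receptor, stood at 295 and 268 TPM. Of the 6 receptor genes only Ifnlr1, the specific chain of the lambda receptor, was not detected. Among the signal transducers, Jak1 had 528 TPM in library 1 and 488 TPM in library 2, and Irf9 had 164 and 157 TPM. Stat2 and Tyk2 were lower, at 65.45 and 61.8 TPM and at 59.8 and 49.9 TPM.

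All 8 interferon regulatory factor genes and all 8 inhibitors of the pathway on the lists were detected. Irf7, itself induced by type I interferon, had 108 TPM in library 1 and 90.6 TPM in library 2, and Irf1 had 314 and 273 TPM. The inhibitor Socs1, which blocks the receptor kinases, had 121 and 107 TPM. Of the adaptors and kinases that lead from nucleic acid sensors to interferon, 9 of 12 were detected. Mavs, the adaptor of RIG-I and MDA5, had 21.7 and 15.8 TPM, Cgas, a DNA sensor, 3.31 and 3.61 TPM, and Tlr7, an endosomal RNA sensor, 19.5 and 24.7 TPM. Tlr3, Tlr8 and Tlr9 stayed under the detection minimum in both libraries.

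The libraries were then compared to see how far technical spread reaches within the set. The ratio is library 1 over library 2, from estimated counts scaled by edgeR's TMM factors, with no test since each side has 1 library. Of the 43 genes with at least 10 summed counts, 14 were higher in library 1 and 29 in library 2, and their median log2 ratio was -0.11. Over all genes with that many counts the median was -0.00. By TPM, with no count filter, 25 of all 44 genes were higher in library 2, among them Ifitm1, which is not one of the 43. Ratios of the 43 ran from -0.62 for Ifit3 to 0.20 for Trim21. Past 1.5-fold lay 1 of the 43, Ifit3, where 23.6% of all 18746 genes with such counts did. Among the 34 members with at least 1000 summed counts it was again the only one past that fold, where the share over protein-coding genes of that depth was 0.487% of 8001.

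Ifit3 (chromosome 19, 34583531 to 34588731) received 988 estimated counts in library 1 and 1406 estimated counts in library 2. Its log2 ratio was -0.62. In the deposited M4 table, counted differently, it had 205 and 259 counts and a log2 ratio of -0.42, and by TPM its ratio was -0.55 with a pseudocount of 0.1, both under 1.5-fold. Its near copy Ifit3b, with which reads are divided, was also lower in library 1, with a log2 ratio of -0.69.

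Within families the direction was at times shared. Ratios of Ifit1 and Ifit2 were -0.40 and -0.10, so all 3 IFIT genes were lower in library 1. Both Ifitm genes with a ratio were lower in library 1 as well, at -0.22 for Ifitm2 and -0.44 for Ifitm3. These signs held by TPM and in the M4 counts. All 6 restriction factors and effector enzymes were lower in library 1 by scaled estimated counts, from -0.49 for Mx1 to -0.04 for Samd9l, although by TPM the sign of Samd9l was the opposite, at 0.17. Sensors had no shared direction, with ratios from -0.15 for Ifih1 to 0.11 for Adar.

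The 34 genes with at least 1000 summed counts had an SD of the log2 ratio of 0.18, close to 0.17 over the 8001 protein-coding genes of that depth. Within a log2 ratio of 0.32 either way lay 91.2% of these 34 genes and 94.2% of those protein-coding genes. Ratio and length were weakly related, with a Spearman rho of 0.285 over the members and 0.253 over protein-coding genes of at least 1000 counts, given as a description across genes. Markers of other cells also moved between the libraries. The 6 neutrophil markers, of which none was detected, summed to 0.55 TPM in library 1 and 6.28 TPM in library 2, with S100a8 at 0 and 3.57 TPM and Retnlg at 0 in both. The 8 macrophage and monocyte markers summed to 34.4 and 29.8 TPM. The 2 most abundant of them went opposite ways, with Lyz2 at 14.4 and 11.85 TPM and Ccr2 at 12.4 and 14.95 TPM. The part of length or of these cells in the ratios was not tested.

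**Figure D3:**
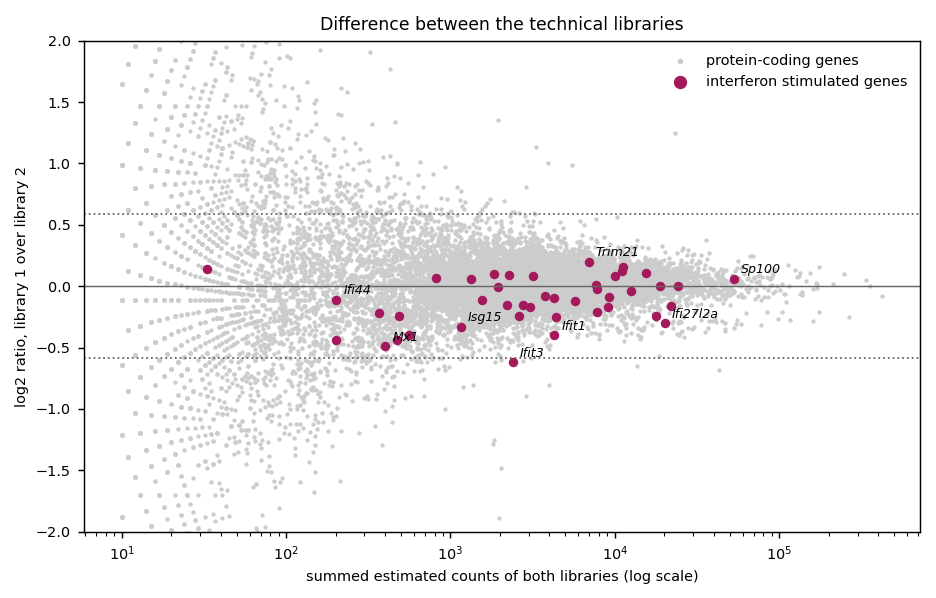
Log2 ratio of library 1 over library 2 (vertical axis, cropped at 2 either way) against summed estimated counts (log scale), with the 43 interferon stimulated genes in dark red over protein-coding genes in grey. Dotted lines mark 1.5-fold, and Ifit3 at -0.62 is the only one of the 43 beyond them.

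Transcript estimates were used to see which forms carried these levels. Of the 42 detected genes, 35 have several annotated transcripts and 7 have 1. The form with the highest TPM took a median of 62.5% of its gene's TPM, and it was annotated as protein coding in 30 of the 35. The kind of leading form was not counted over other genes. Protein-coding forms together took a median of 83.2%, against 84.0% over 9743 detected protein-coding genes with several transcripts. In 5 of the 35 genes they took under 50%, as they did in 16.5% of those 9743. Such estimates divide shared reads by a model, and that error is not in the SD.

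By TPM, the 5 genes led by another kind of transcript were Ifi203, Ifi27, Mx1, Oasl2 and Uba7. For Ifi203 the processed transcript Ifi203-208 accounted for 62.9% of TPM in library 1 and 62.1% of it in library 2, but only 19.6% and 19.4% of estimated counts, since it is short. Ifi27-209, which retains an intron, took 44.6% and 42.8% of Ifi27 TPM. By estimated counts the leader of Ifi27 was instead the protein-coding Ifi27-205, with 35.3% in library 1 and 36.8% in library 2. Mx1-205 and Oasl2-205, both annotated as subject to nonsense-mediated decay, took 48.5% and 54.5% of Mx1 TPM and 41.4% and 47.3% of Oasl2 TPM. By TPM all 5 leaders were the same in both libraries.

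Uba7 stood apart in that no protein-coding form was assigned reads. Its only annotated coding transcript, Uba7-201 with 977 codons, was at 0 TPM in library 1 and in library 2. Retained-intron forms took 75.6% of its TPM as a mean of the libraries, and forms subject to nonsense-mediated decay 18.3%. The leading form, which retains an intron, took 17.4% in library 1 and 22.5% in library 2. Thus the 217 and 213 TPM given for the gene are a sum over transcripts annotated as not coding for the full enzyme, and the coding form was assigned none of it.

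Adar is known to make a long interferon-induced and a shorter constitutive protein. Its leading transcripts were Adar-203, with 1178 codons, at 46.8% of TPM in library 1 and 51.9% in library 2, and Adar-201, with 1152 codons, at 36.5% and 36.7%. Adar-202, with 930 codons, had 2.95 TPM in library 1 and 0 in library 2. For Oasl1 the estimate moved from one form to another, as Oasl1-201 accounted for 89.0% of TPM in library 1 and 0% of it in library 2, and Oasl1-202 took 0 in library 1 and 88.1% in library 2. These forms have the same number of codons, 511, and differ at their ends. In 31 of the 35 genes the leader was the same in both libraries, the others being Oasl1, Parp14, Trim25 and Zbp1.

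**Figure D4:**
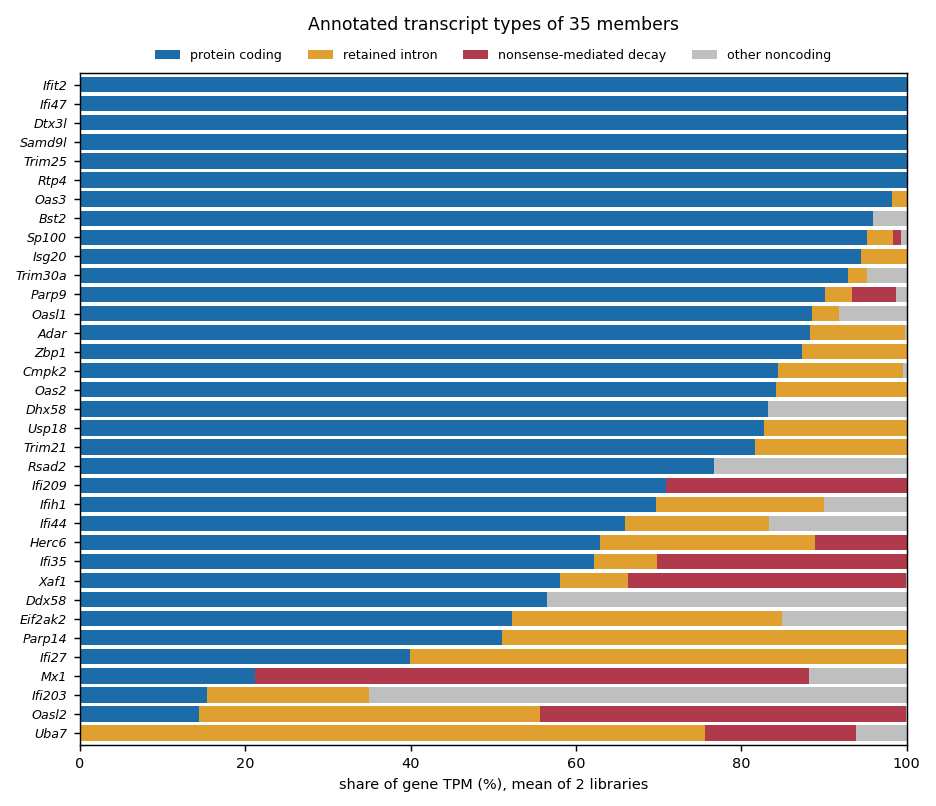
Share of each gene's TPM (percent, mean of both libraries) by annotated transcript type, for the 35 detected genes with several transcripts. Protein-coding forms take 100.0% in genes such as Ifit2 and Ifi47 and 0% in Uba7.

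The deposited M4 table, with whole-number counts per gene, gave the same genes lower and unequal counts. In library 1 the M4 count came to between 5.99% of the M21 estimated count, for Ifi27l2a, and 77.3%, for Oasl1, among the 42 detected genes, and among the 34 abundant ones its median was 42.1% in library 1 and 41.5% in library 2. Genes with more estimated counts tended to have the smaller share, with a Spearman rho of -0.473 between share and estimated counts over those 34 genes, which share the same libraries. The estimated count is also the divisor of the share, so part of a negative rho can come from the calculation itself. In library 1 Ifi27l2a had 564 M4 counts against 9412 estimated counts, and in library 2 it had 576 against 10687. Per kilobase of length Ifi27 came first on M4 and Ifi27l2a in place 7, although rho between the order by TPM and by M4 counts per kilobase was 0.955 across the 44 genes. The place of Ifi27l2a at the top thus rests on the M21 estimates, and the cause of the gap was not tested.

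**Figure D5:**
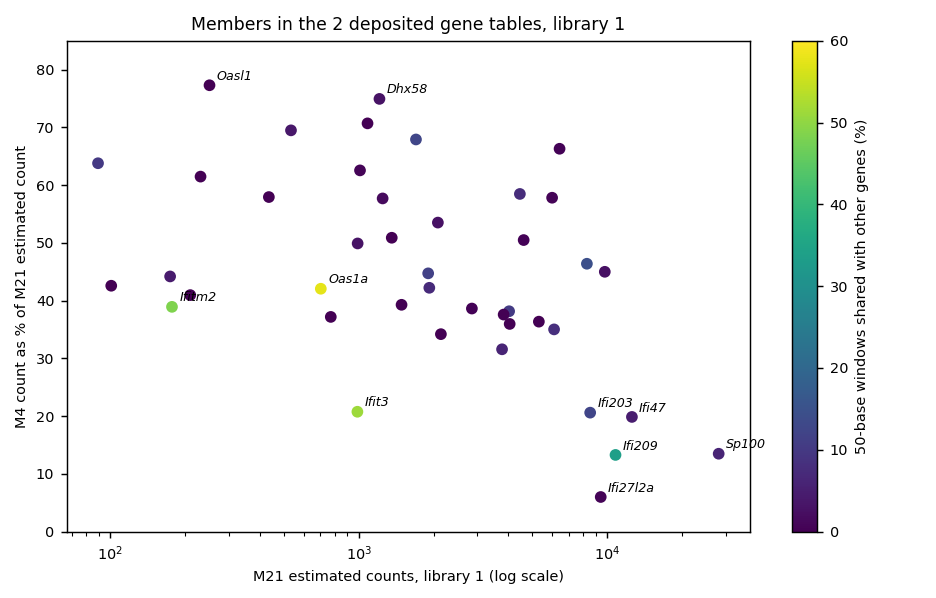
M4 count as a percentage of the M21 estimated count in library 1 (vertical axis) against the M21 estimated count (log scale), for members with at least 100 summed counts, coloured by the percentage of 50-base transcript stretches shared with other genes. Ifi27l2a lies lowest at 5.99% with little sharing, and Ifit3, with 51.2% shared, lies at 20.8%.

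Sharing of sequence with other genes varied over the set. Of the 44 genes 11 shared no 50-base stretch with another annotated gene, among them Bst2, Cmpk2, Ifi44, Ifih1, Ifit2, Isg20, Rsad2 and Zbp1. The largest shares were those of Oas1a, Ifit3, Ifitm2 and Ifi209 given above, followed by Ifi204 at 20.0%. For Adar 14.4% of stretches fell in Chrnb2, a gene on the opposite strand that overlaps it and stood at 1.54 TPM in library 1 and at 1.40 TPM in library 2.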

How the data were processed

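PolyA-selected RNA of 2 technical libraries of 1 Treg biosample was analysed as 1 group. Per the file headers, the deposited M21 gene and transcript tables hold estimated counts, TPM and FPKM, with posterior means and credibility bounds. The authors also deposited whole-number counts per gene on M4. The assembly is mm10 per the labels, and the aligner, quantifier and counter are not stated there. Rows that name no gene (0.197% and 0.212% of estimated counts) were left out. Gene names and coordinates came from GENCODE M21 (GRCm38, 1-based), and 22195 of 22457 M4 genes matched by identifier.

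Detection required at least 1 TPM in each library. Estimated counts were rounded, scaled by TMM factors (edgeR 4.0.16) over genes whose counts summed to 10 or more, and log2 ratios took a prior count of 0.5. Ratios have no test, since 1 library a side leaves no residual degrees of freedom, and counts past 1.5-fold are set beside the share over all genes. The ratio was tested on simulated data. Floors cover counting error only, as PCR copies are not independent molecules. Effective length equalled length less a 50-base window plus 1 base in 100.0% of transcripts, so sharing between genes was counted in 50-base stretches of M21 transcripts. Promoter windows came from RefSeq (GRCm38.p6). All genes of the set, the 9 pathway lists and the 8 marker lists could be named, and some listed genes are not reported here. The genes and lists were chosen with earlier results of these data known. Alternatives covered detection minimum, unit, scaling (library totals, DESeq2 1.42.0 size factors), filters, prior count, pseudocount, M4 counts, fold, motif and leaving out each library.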

Additional observations from a re-analysis of the deposited data

How the results depend on the processing

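Of the 44 genes, 38 to 43 were detected under all 7 alternatives tried, and pathway genes detected ran from 72 to 87, against 79. The median of 46.1 TPM was 42.9 by posterior mean TPM, 28.7 in FPKM and 52.6 over genes with at least 10 summed counts, and 44.6 to 45.9 with either library left out. The median log2 ratio stayed negative, from -0.12 to -0.05, under every alternative. Against 1 gene past 1.5-fold there were 2 with no count filter (Ifit3 and Ifitm1), 2 by TPM with a pseudocount of 0.1 (Mx1 and Ifitm1), 0 by TPM with a pseudocount of 1 and 0 by M4 counts, and 7 past a log2 ratio of 0.32 and 0 past 2-fold. Of 385 gene ratios under alternatives 359 kept their sign. The leading transcript share of 62.5% was 80.1% by estimated counts and 62.6% to 63.1% with either library left out. Against 15 genes with the GAAA pair, 8 held the strict form and 8 the TTC and GAA element. Separated neighbours numbered 18 by posterior mean TPM and by FPKM, settings chosen after seeing the data. The causes of these changes were not tested. No paired analysis was possible because there is 1 group, and leaving out a library leaves no ratio. Low counts limit Ifitm1 and Ifi204.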

Other observations

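Genes that respond strongly to interferon gamma were nearly all expressed. Of 21 such GTPase, chemokine and antigen processing genes 20 were detected, beside 48.0% of protein-coding genes. The exception was Cxcl9, at 0.23 TPM in library 1 and 0 in library 2. Psmb8, a subunit of the immunoproteasome, was highest, at 959 and 947 TPM. Tap1, a subunit of the transporter that feeds peptides to class I molecules, had 336 TPM in library 1 and 291 TPM in library 2, and the GTPase Igtp had 305 and 261 TPM. Nlrc5, an activator of class I genes, stood at 184 and 152 TPM. The median log2 ratio of library 1 over library 2 was 0.10 over the 20 genes with a ratio, and none passed 1.5-fold.

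Of 36 near relatives of the 44 genes 22 were detected, beside 48.0% of protein-coding genes. Mndal, next to the Ifi200 genes, had 421 TPM in library 1 and 401 TPM in library 2, above Ifi203. Sp110, a relative of Sp100, had 227 and 238 TPM, and Ifit1bl1 had 84.7 and 79.5 TPM, above each of the IFIT genes named in the set. Mx2 had 2.55 and 4.20 TPM. Oas1d and Oas1h were at 0 in both libraries.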
